A study of Mus musculus with 18 samples.

Results

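Inflammasomes are protein platforms that immune cells assemble on meeting microbial or misplaced molecules. A sensor recruits the adaptor ASC, encoded by Pycard, which brings in caspase-1 to cut the precursors of IL-1β and IL-18 and the pore protein gasdermin D. AIM2 senses double-stranded DNA in the cytosol and sits in one gene cluster with its relatives of the interferon-inducible Ifi200 family, NLRP3 responds to disturbance of the cell, pyrin (Mefv) responds to inactivation of RhoA, and caspase-11, encoded in the mouse by Casp4, binds bacterial lipopolysaccharide directly. The transcripts examined here were those of the DNA sensor family (Aim2, Ifi203, Ifi204 and Ifi205), of the sensors Nlrp3 and Mefv, of the adaptor Pycard, of the caspases Casp1 and Casp4, and of Gsdmd, the gasdermin D gene. They were the rows of the expression table whose Ensembl identifier, without its version, maps to these 10 symbols, that is 10 of 54446 genes.

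The cells were eosinophils from the peritoneal cavity of NJ.1638 Il5Tg mice (strain label C57BL/6), which carry an Il5 transgene. Every group received apoptotic cells (ACs), wild-type thymocytes driven into apoptosis by dexamethasone, at 5 per eosinophil for 18 h. In the Type 1 experiment the groups were ACs, E. coli + ACs, IFN-γ + ACs and IFN-γ + E. coli + ACs, and in the IL-4 experiment they were ACs and IL-4 + ACs. For the combination the study describes IFN-γ followed by E. coli. Where 1 stimulus is said below to be added to the other, this names the groups compared and not the order of treatment. Each of the 6 groups had 3 libraries, 18 in all, described in the study's methods as biological replicates, and eosinophils without ACs were not analysed here. No label names the experiment of an ACs library: it was taken from the spelling of the description labels, which begin alike within an experiment, and every IL-4 comparison below rests on it. Before RNA was extracted the cells were selected again with anti-Siglec-F beads. The study's methods report that the purity and viability of all samples were then checked by flow cytometry. CEL-Seq2 libraries count the 3′ ends of transcripts, and values below are normalized counts, the reads of a gene divided by the size factor of its library. They compare 1 gene between libraries and not different genes with each other. A gene is said to differ after E. coli, after IFN-γ, after both stimuli or after IL-4 where these were given together with ACs.

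The libraries held 779421 to 7782072 reads on genes, with a median of 4461121. Both replicate 3 libraries of the IL-4 experiment were shallow, with 779421 reads in ACs and 849705 in IL-4 + ACs, where 3 reads stand for normalized counts of 16.1 and 15.4. Counts of calls after IL-4, and for the IFN-γ effect against the IL-4 effect, are also given without them. The comparison of the ACs groups of both experiments is given only with the shallow ACs library. Of the markers of the labelled cell type, Siglecf (1514 to 3367) and Ccr3 (2622 to 4934) were counted in every library, whereas Epx, the eosinophil peroxidase gene, lay between 0 and 25.7. All 10 of the macrophage markers listed were also counted in every group, and they are given beside the genes they moved with. In bulk RNA, fewer cells of a type and less RNA per cell cannot be told apart.

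On chromosome 1 of GRCm38, Aim2 (173350879 to 173466040, plus strand) opens the Ifi200 cluster. Ifi204 (173747293 to 173766943), Ifi203 (173920407 to 173942672) and Ifi205 (174011998 to 174031810) follow on the minus strand, with 10 other Ifi200 genes, 1 of them a pseudogene, in the same interval. The Ifi203 gene overlaps Mndal on the same strand over 37 exonic bases. The 3′ end of Ifi205 is close to that of Ifi211: 79.2% of the 50-base words in its last 500 exonic bases also occur in Ifi211. The study's methods describe counting uniquely mapped reads only. Reads that fit both genes may thus have been left out of both, or counted for the wrong gene. The Ifi205 values are uncertain to that extent. The search covered only the genes examined here, the protein-coding Ifi200 genes and Casp12. Within it no such sharing was found for the other 9 transcripts, and other genes were not searched. Casp1 (chromosome 9, 5298517 to 5307265) and Casp4 (5308828 to 5336783) are neighbours on the plus strand, 1562 bases apart.

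The promoters in the Ifi200 cluster are shown first, because they share a sequence that the choice of genes did not use. RefSeq promoters on GRCm38.p6, each 250 bases before to 50 bases after the annotated start, were found for 8 of the 10 genes, all but Ifi204 and Gsdmd, and numbered 11 because some genes have more than 1 start. They were searched on both strands for GAAA and GAAA with any 2 bases between them, the core of the interferon-stimulated response element (ISRE) that interferon regulatory factors are known to bind. The core was present in the promoters of Ifi203 and Ifi205, and in those of 7 of 9 other genes of the cluster, against 3.99% of all 27025 genes with a promoter. It was absent from the promoter windows of Aim2, Nlrp3, Mefv, Pycard, Casp1 and Casp4. In the 40-base stretches that follow, read 5′ to 3′ along the gene, capitals mark the core:
Ifi203: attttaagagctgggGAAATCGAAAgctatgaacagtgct
Mndal: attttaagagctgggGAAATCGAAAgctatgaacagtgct
Ifi205: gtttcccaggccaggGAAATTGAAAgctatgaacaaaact
Ifi211: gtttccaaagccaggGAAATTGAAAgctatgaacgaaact
Ifi206: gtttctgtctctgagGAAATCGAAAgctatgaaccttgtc
Ifi208: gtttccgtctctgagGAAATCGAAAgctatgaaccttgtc
Ifi213: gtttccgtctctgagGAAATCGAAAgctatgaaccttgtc
Ifi214: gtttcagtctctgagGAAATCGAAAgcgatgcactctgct
Ifi207: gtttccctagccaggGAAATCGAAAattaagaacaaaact
The Ifi203 stretch lies at chr1:173942503-173942542 and that of Ifi205 at chr1:174031865-174031904, both on the minus strand, with the core starting 35 and 134 bases upstream of the start. The Mndal stretch, at chr1:173880199-173880238, was the same as that of Ifi203 in 40 of 40 bases, and the other 7 stretches matched Ifi203 at 27 to 29 of 40. The sequence is therefore a family feature, and its presence in 9 genes is not 9 independent matches.

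The gamma-activated site TTCNNNGAA was in no promoter of the 8 genes (9.55% of all genes with a promoter). The NF-κB motif was in those of Casp4, Ifi203 and Nlrp3 (9.55% of all genes), and TTC and GAA with any 4 bases between them, to which STAT6 binds, was in those of Ifi203, Ifi205 and Nlrp3 (8.01%). Of the 8 genes, only Ifi203 had the AP-1 motif TGANTCA in its promoter (8.97% of all genes). Capitals mark the NF-κB matches in the stretches of Casp4 (chr9:5308741-5308834) and Nlrp3 (chr11:59541368-59541407), shown because these genes were called as higher after stimuli, as given below:
Casp4: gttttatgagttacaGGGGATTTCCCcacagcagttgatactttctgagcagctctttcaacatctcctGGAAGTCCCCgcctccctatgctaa
Nlrp3: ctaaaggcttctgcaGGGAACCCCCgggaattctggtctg
A match of letters is a description of the window and not a test of binding.

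IFN-γ raised most of the inflammasome transcripts. After IFN-γ, 8 of the 10 rose against ACs and none fell: Casp1, Ifi205, Mefv, Nlrp3, Ifi203, Casp4, Ifi204 and Gsdmd, by 1.53-fold to 3.08-fold. Over all 10166 genes tested, 21.4% were called, and 11.4% were called as higher. Over all genes there were 1160 higher and 1013 lower calls, and 966 and 1247 after scaling to a common upper quartile, which moved the median of all genes by -0.0879, and 7 of the 10 genes were then called. A gene was called at a Benjamini-Hochberg adjusted p under 0.05 in limma with a change of at least 1.5-fold, and log2 differences are on the log2(normalized count + 1) scale. The median log2 difference of the 10 genes was 1.09, and that of all genes tested was -2.07e-06. The groups of 3 libraries did not overlap for 9 of the 10 genes, all in the upward direction, against 42.9% of all genes tested in either direction.

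E. coli on its own called fewer of them. Nlrp3 and Ifi205 rose after E. coli, Pycard fell, and the other 7 were not called, against 10.3% of all genes tested (5.05% higher and 5.25% lower). After both stimuli, Nlrp3, Casp1, Mefv, Casp4, Ifi205 and Gsdmd rose and Pycard fell, 7 of 10 against 31.9% of all genes tested (14.7% higher and 17.2% lower). Scaling to a common upper quartile moved the median of all genes by -0.137 in this comparison and gave 1155 higher and 2200 lower calls over all genes in place of 1494 and 1746, while the 7 calls above held. After IL-4, limma called 0 of 10 against 1.09% of all genes tested, a share at which 0 of 10 does not set these genes apart. On the recovered reads edgeR and DESeq2 also called 0, while 2 genes, Casp4 and Mefv, had an unadjusted p under 0.05 in limma. Without both shallow libraries of the IL-4 experiment 1 of the 10, Mefv, was called, against 6.17% of all genes tested. The 3 Type 1 comparisons share the same ACs libraries, so their values stand side by side and are not independent of each other.

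**Figure D1:**
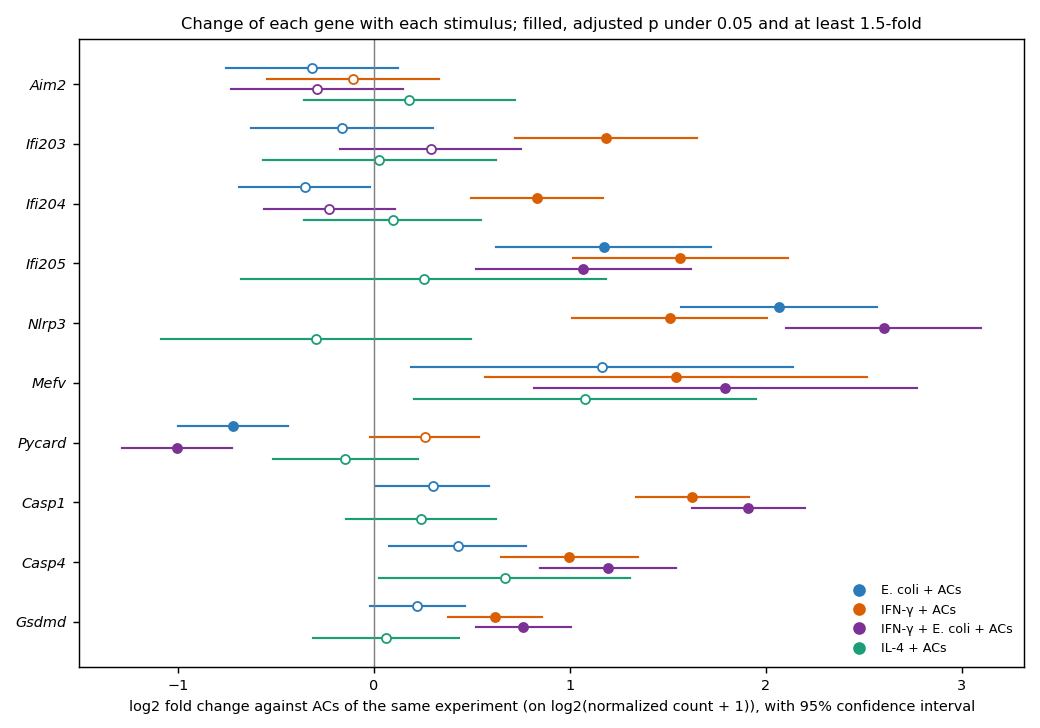
Log2 fold change of each of the 10 genes against ACs of the same experiment (horizontal axis, on log2(normalized count + 1)) for E. coli + ACs, IFN-γ + ACs, IFN-γ + E. coli + ACs and IL-4 + ACs, 3 libraries per group. Points are limma estimates, lines are 95% confidence intervals, and filled points passed an adjusted p of 0.05 and 1.5-fold; Pycard is the only gene with filled points below 0, and no IL-4 point is filled.

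Aim2, the DNA sensor itself, was called in none of these comparisons. Its normalized counts were 76.4, 69.5 and 77.5 with ACs, 59.4, 59.7 and 59.8 after E. coli, 60.7, 64.2 and 84.1 after IFN-γ, and 55.6, 56.2 and 71.7 after both stimuli. All 3 E. coli + ACs values were below all 3 ACs values, but the difference of -0.31 did not pass (adjusted p = 0.38). The IFN-γ + ACs values overlapped those of ACs, and the 95% confidence interval of the log2 difference ran from -0.55 to 0.33. In the IL-4 experiment the counts were 104.5, 113 and 69.7 with ACs and 118, 111 and 92.5 after IL-4, overlapping, with an interval of -0.36 to 0.72.

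The 3 relatives of Aim2 rose with IFN-γ. Ifi204, whose protein p204 has been described as a nuclear DNA sensor, had 667, 611 and 621 normalized counts with ACs and 1057, 1157 and 1174 after IFN-γ. Every IFN-γ + ACs library was thus above every ACs library, and the rise was 1.78-fold (log2 0.83 ± 0.16 SE, adjusted p = 0.00059). Its counts were 516, 532 and 443 after E. coli, all below the ACs libraries without passing (log2 -0.35, adjusted p = 0.17), and 440.5, 474 and 755 after both stimuli.

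Ifi203, another member of the family with a pyrin domain, had 258, 351 and 307 normalized counts with ACs and 586, 667 and 841 after IFN-γ. The groups did not overlap, and the rise was 2.28-fold (log2 1.19 ± 0.22 SE, adjusted p = 0.00046). After E. coli its counts were 297, 312 and 213, overlapping the ACs libraries (adjusted p = 0.72). After both stimuli they spread from 255 through 368 to 541, overlapping ACs (adjusted p = 0.32).

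Ifi205 was the only gene of the 4 that E. coli also raised. Its normalized counts were 98.4, 47.9 and 52.2 with ACs, 148, 150.4 and 130.2 after E. coli, 146, 194 and 232 after IFN-γ, and 101, 125 and 185 after both stimuli. Each stimulated library was above each ACs library. The rises were 2.26-fold with E. coli (adjusted p = 0.0046), 2.96-fold with IFN-γ (adjusted p = 0.00015) and, on the log2 scale, 1.07 with both (adjusted p = 0.0032). Reads that fit both Ifi205 and Ifi211 may have been left out or counted for the wrong gene. Ifi211 rose with IFN-γ (log2 1.16, adjusted p = 0.00029) and was not called with E. coli (log2 0.22, adjusted p = 0.56).

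**Figure D2:**
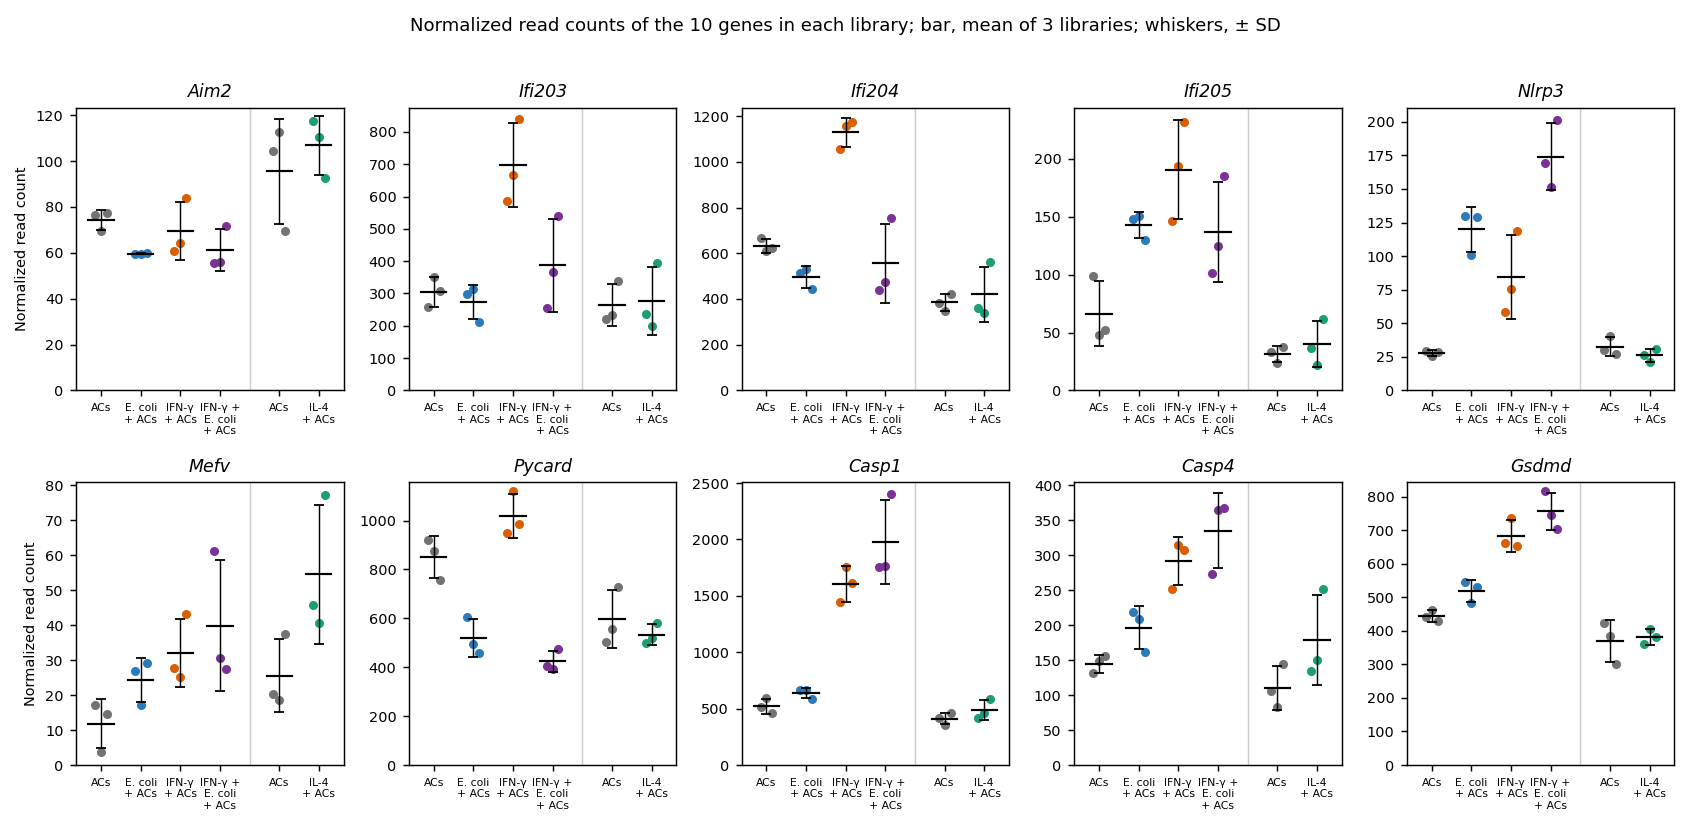
Normalized read counts (vertical axes, starting at 0, 1 panel per gene) of the 10 genes in each library of the 4 Type 1 groups and the 2 IL-4 groups. Points are libraries, horizontal bars are means of 3 libraries and whiskers are ± SD; Casp1, Casp4 and Gsdmd are highest after both stimuli, Ifi203, Ifi204 and Ifi205 after IFN-γ.

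Nlrp3, the sensor whose own transcript has to be induced in macrophages before the inflammasome can form, rose with each Type 1 stimulus. It had 29.3, 25.3 and 28.5 normalized counts with ACs, 129.8, 101 and 129 after E. coli, 58.0, 75.7 and 119 after IFN-γ, and 169.6, 151 and 201 after both stimuli. None of the 3 stimulated groups overlapped ACs, and the 2 groups with E. coli lay higher than IFN-γ alone except for 1 IFN-γ + ACs library. The rise was 4.19-fold with E. coli (log2 2.07 ± 0.24 SE, adjusted p = 5.7e-06), 2.85-fold with IFN-γ (1.51 ± 0.24, adjusted p = 8.3e-05) and 6.07-fold with both (2.60 ± 0.24, adjusted p = 6.3e-08). Nlrp3 was the one gene of the 10 with a further rise when E. coli was added to IFN-γ, by 2.13-fold (adjusted p = 0.0029).

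Mefv, the pyrin gene, rested on few reads. Its normalized counts were 17.1, 3.75 and 14.7 with ACs, 26.8, 17.2 and 29.0 after E. coli, 27.7, 25.2 and 43.1 after IFN-γ, and 61.3, 30.5 and 27.6 after both stimuli. The lowest of them, replicate 2 of ACs, came from 4 reads, and the others of that experiment from 18 to 43. No stimulated group overlapped ACs, and Mefv rose 2.91-fold with IFN-γ (log2 1.54 ± 0.46 SE, adjusted p = 0.019) and 3.47-fold with both stimuli (1.79 ± 0.46, adjusted p = 0.0049), while E. coli alone did not pass (1.16, adjusted p = 0.11). The IFN-γ call rested on single libraries: the log2 difference was 0.93 (adjusted p = 0.12) without replicate 2 of ACs and 1.31 (adjusted p = 0.076) without replicate 3 of IFN-γ + ACs. The value for both stimuli moved to 1.19 (adjusted p = 0.035) without replicate 2 of ACs.

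Pycard, the adaptor that joins the sensors to caspase-1, moved the other way. Its normalized counts were 921, 874 and 756 with ACs and 605, 493 and 457 after E. coli, lower in all 3 libraries, and it fell by 0.72 on the log2 scale (SE 0.13, adjusted p = 0.00099), so that ACs were 1.65-fold higher. After IFN-γ the counts were 948, 1119 and 985, all above ACs, a difference of 0.26 that did not pass (adjusted p = 0.16). With both stimuli they were 403, 395 and 473, the lowest of the 4 groups on average, and Pycard fell by 1.00 on the log2 scale (SE 0.13, adjusted p = 7.9e-06). Between IFN-γ + E. coli + ACs and IFN-γ + ACs the difference was 2.40-fold, lower after both (adjusted p = 2.6e-06). Thus the adaptor was lower in the 2 groups in which Nlrp3 was highest. Pycard overlaps Gm45205 on the opposite strand over 485 exonic bases, and how the authors' counting treated strand is not given in the sources used here.

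The summed level of the macrophage markers, like the means of Pycard and Ifi204, was highest after IFN-γ and lower in both E. coli groups than with ACs, and Ifi203 shared the first of these features. Single markers did not all follow the sum: Adgre1 had a mean of 1806 with ACs, 2366 after E. coli, 2078 after IFN-γ and 2987 after both stimuli, Csf1r and Vsig4 were highest with ACs, and Mertk was higher after both stimuli (387) than with ACs (253). The part of other cells in these results was not tested. The summed normalized counts of the 10 markers, of which none was at 0 in any group, ranged from 18657 to 23960 with ACs, 10254 to 12495 after E. coli, 28563 to 38160 after IFN-γ and 11771 to 12907 after both stimuli. C1qc, Lyz2 and C1qb made up most of the sum, with C1qc at a mean of 8319 with ACs, 2930 after E. coli, 11870 after IFN-γ and 2337 with both. Of the 10 markers, 6 fell and none rose with E. coli, 4 rose and 1 fell with IFN-γ, 2 rose and 5 fell with both stimuli, and 8 fell and none rose when E. coli was added to IFN-γ. Casp1, Casp4, Gsdmd and Nlrp3 did not share this order of groups, being at or above the IFN-γ + ACs level on average with both stimuli. The summed eosinophil markers ranged from 16864 to 18343 with ACs, 18334 to 19636 after E. coli, 10351 to 11584 after IFN-γ and 15053 to 17579 with both. Of the 8 tested, 5 fell and 0 rose with IFN-γ, 1 rose and 1 fell with E. coli, and 2 fell and 0 rose with both. Alox15 was the largest part of this sum in every group (mean 9408 with ACs). Here too single markers departed from the sum, as Siglecf had a mean of 3237 with ACs and 2640 after E. coli, and Ccr3 3275 with ACs and 4498 with both.

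**Figure D3:**
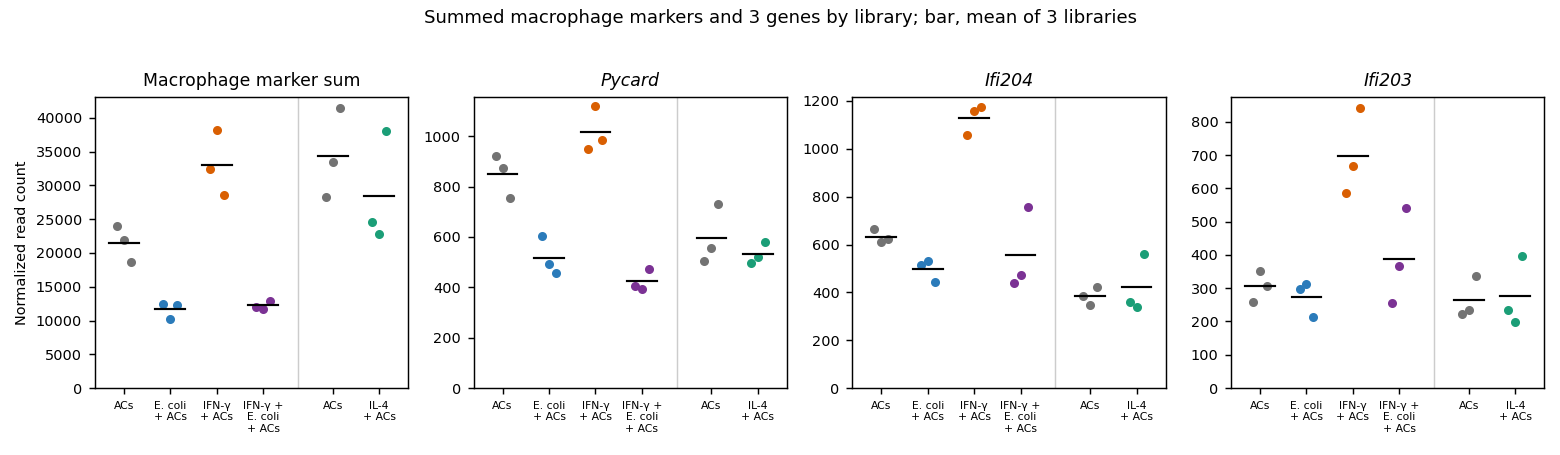
Summed normalized counts of 10 macrophage markers, and normalized counts of Pycard, Ifi204 and Ifi203 (vertical axes, starting at 0), in each library of the 6 groups, with bars at the mean of 3 libraries. In the Type 1 experiment all 4 panels are highest after IFN-γ, where the marker sum is 28563 to 38160, against 10254 to 12907 in the 2 groups with E. coli.

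Casp1, the gene of the enzyme that cuts pro-IL-1β and pro-IL-18, had 511, 592 and 461 normalized counts with ACs and 669.7, 663 and 588 after E. coli. The counts with IFN-γ were of another size, 1443, 1758 and 1617 after IFN-γ and 1753, 1765 and 2403 after both stimuli. The E. coli libraries overlapped ACs (log2 0.30, adjusted p = 0.17), and both groups with IFN-γ stood clear of both groups without it. Casp1 rose 3.08-fold with IFN-γ (log2 1.62 ± 0.14 SE, adjusted p = 3.5e-08) and 3.76-fold with both stimuli (1.91 ± 0.14, adjusted p = 2.6e-09). Adding IFN-γ to E. coli raised it 3.05-fold (adjusted p = 6.8e-08), and adding E. coli to IFN-γ did not pass (log2 0.29, adjusted p = 0.16).

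Casp4 had 131, 148 and 156 normalized counts with ACs, 218, 209 and 162 after E. coli, 252, 314 and 308 after IFN-γ, and 274, 365 and 367 after both stimuli. Each stimulated group lay above ACs, and the groups with IFN-γ lay above E. coli + ACs. The rise was 2.00-fold with IFN-γ (adjusted p = 0.00015) and 2.29-fold with both (adjusted p = 1.3e-05), whereas the log2 difference of 0.43 with E. coli did not pass (adjusted p = 0.10). With IFN-γ added to E. coli, Casp4 rose 1.70-fold (adjusted p = 0.0023).

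Gsdmd, whose protein forms the pores of pyroptosis once cut, changed least among the genes called. It had 442, 464 and 429 normalized counts with ACs, 547, 482 and 529.5 after E. coli, 661, 738 and 653 after IFN-γ, and 817, 746 and 705 after both stimuli. The order was the same as for Casp1 and Casp4, and no stimulated library fell within the range of ACs. Gsdmd rose 1.53-fold with IFN-γ (log2 0.62 ± 0.12 SE, adjusted p = 0.00045) and 1.70-fold with both (0.76 ± 0.12, adjusted p = 3.2e-05). The IFN-γ rise sat near the fold threshold and was short of it after scaling to a common upper quartile (log2 0.53, adjusted p = 0.0017) and without replicate 2 of IFN-γ + ACs (0.56, adjusted p = 0.0041). With E. coli alone the difference was 0.22 (adjusted p = 0.24).

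The combination was also set against each single stimulus. Against IFN-γ + ACs, Nlrp3 rose and Pycard, Ifi204 and Ifi203 fell when E. coli was present as well, 4 of 10 against 14.6% of all genes tested (5.96% higher and 8.61% lower). Ifi204 fell by 1.06 on the log2 scale (adjusted p = 0.00011) and Ifi203 by 0.90 (adjusted p = 0.0072), and the groups did not overlap. Without replicate 1 of IFN-γ + E. coli + ACs the Ifi203 fall was 0.63 and did not pass (adjusted p = 0.051). Against E. coli + ACs, Casp1 and Casp4 rose and none fell. These were 2 of 10 against 19.4% of all genes tested, a share at which 2 of 10 does not set these genes apart. Over all genes there were 995 higher and 973 lower calls, or 769 and 1352 with upper-quartile scaling, which moved the median by -0.105. Gsdmd passed the adjusted p (0.0020) with a difference of 0.54, short of 1.5-fold. Ifi203 was called in that comparison without replicate 1 of IFN-γ + E. coli + ACs (log2 0.72, adjusted p = 0.021), as was Gsdmd without replicate 3 (0.59).

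The interaction asked whether the E. coli effect differed with and without IFN-γ. It was called for 1 of the 10 genes, Ifi205, against 7.44% of all genes tested, a share at which 1 of 10 does not set these genes apart. E. coli raised Ifi205 by 1.17 on the log2 scale without IFN-γ, and with IFN-γ the difference was -0.50 (adjusted p = 0.20), which makes the interaction -1.67 (SE 0.37, adjusted p = 0.0091). For Ifi204 (-0.71, adjusted p = 0.062), Pycard (-0.54, adjusted p = 0.085), Nlrp3 (-0.97, adjusted p = 0.083) and Ifi203 (-0.73, adjusted p = 0.17) the estimate was below 0 and did not pass. These calls turned on single libraries: without replicate 3 of IFN-γ + E. coli + ACs, which had the highest Ifi203, Ifi204 and Pycard counts of its group, Ifi204 (-0.95, adjusted p = 0.0014), Ifi203 (-1.01, adjusted p = 0.028) and Pycard (-0.63, adjusted p = 0.046) were called as well, and Nlrp3 was called without replicate 1 of IFN-γ + ACs (-1.21, adjusted p = 0.031). For Casp1 the interaction was -0.02, with a 95% confidence interval from -0.42 to 0.39.

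Most of the other Ifi200 genes tested rose with IFN-γ and fell when E. coli was added to it, as Ifi203 and Ifi204 did. Of 11 other family genes listed, 8 were tested, and 7 of these rose after IFN-γ, against 11.4% of all genes tested called as higher. The rises ran from Ifi209 (log2 0.75, adjusted p = 0.00077) to Ifi206 (1.46, adjusted p = 3.7e-07), while Ifi207 did not reach 1.5-fold (0.50, adjusted p = 0.037). After E. coli only Ifi207 was called, against 10.3% of all genes tested, and it fell by 0.68 (adjusted p = 0.011). With both stimuli only Ifi206 was called, against 31.9% of all genes tested, and it rose (0.71, adjusted p = 0.00083). When E. coli was added to IFN-γ, 7 of the 8 fell, against 8.61% of all genes tested called as lower. The exception was Ifi214 (-0.39, adjusted p = 0.29), and Ifi213 was at -1.01 (adjusted p = 0.00081). The interaction was called below 0 for 4 of the 8, against 7.44% of all genes tested in either direction. It was called for neither Ifi203 nor Ifi204 in the main fit. The median log2 difference of the 8 was 0.89 with IFN-γ and 0.23 with both stimuli. The ISRE core and the IFN-γ call did not coincide gene by gene, since Ifi209 was called without a core in its window and Ifi207 had the core and was not called. The Ifi209 window does hold taaatcgaaa, which differs from the core only in its first base, and Ifi207 missed only the fold threshold. The macrophage marker sum given above fell between the same groups as these 7 genes.

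**Figure D4:**
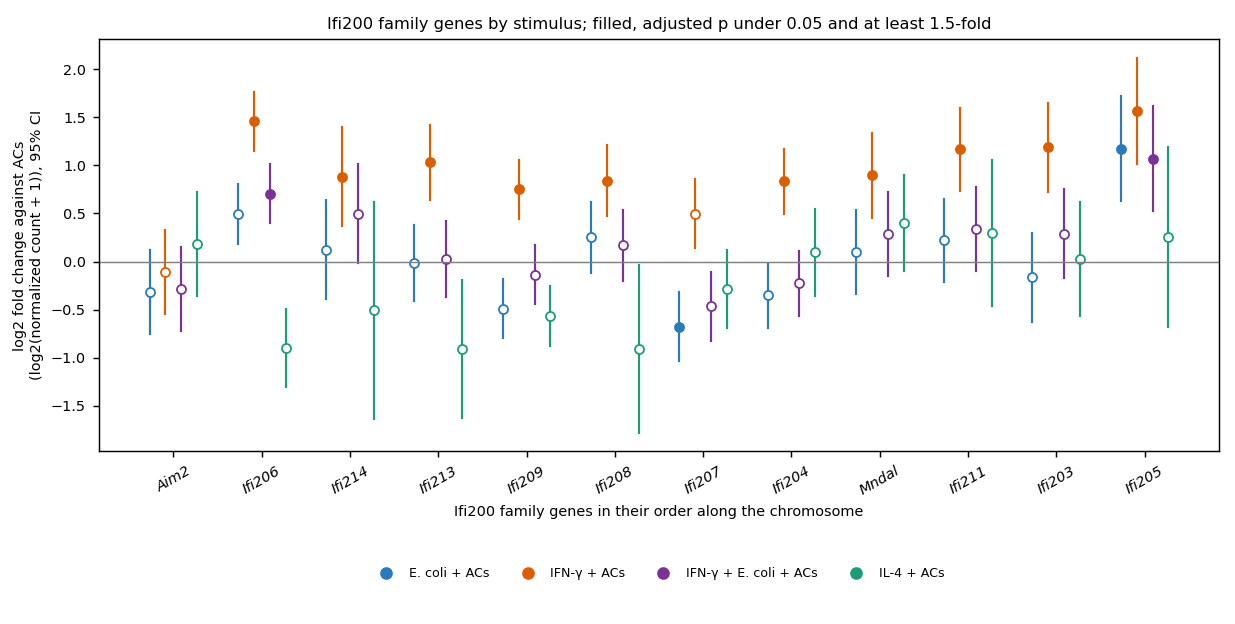
Log2 fold change against ACs of the same experiment (vertical axis, with 95% confidence intervals) of the 12 tested Ifi200 family genes, in their order along the chromosome, for 4 stimuli with 3 libraries per group. Filled points were called; IFN-γ points are filled for 10 of the 12 genes, the exceptions being Aim2 and Ifi207, and for all 12 the point for both stimuli lies below that for IFN-γ alone, a difference called for 9.

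In the main fit IL-4 left these transcripts without a call, as it did most genes tested. Mefv had 20.3, 18.7 and 37.5 normalized counts with ACs and 45.8, 40.6 and 77.1 after IL-4, a log2 difference of 1.08 (adjusted p = 0.41), and its groups did not overlap, the only one of the 10 for which they did not (17.3% of all genes tested). The values of 37.5 and 77.1 came from the shallow libraries and rested on 7 and 15 reads. Without both shallow libraries the difference was 1.11 and Mefv was called (adjusted p = 0.032), 1 of 10 against 6.17% of all genes tested in that fit. Casp4 had 105, 82.5 and 145 normalized counts with ACs and 135, 149.6 and 252 after IL-4, overlapping, with a difference of 0.67 (adjusted p = 0.50).

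In the same experiment Casp1 had 414, 358 and 461 normalized counts with ACs and 421, 459 and 586 after IL-4. Nlrp3 had 30.1, 40.5 and 26.8 with ACs and 26.6, 21.1 and 30.8 after IL-4, and Pycard 503, 555 and 729 against 498, 519 and 581. All 3 pairs of groups overlapped, and the 95% confidence intervals of the log2 differences were -0.14 to 0.63 for Casp1, -1.09 to 0.50 for Nlrp3 and -0.52 to 0.22 for Pycard. Gsdmd had 424, 385 and 300.2 with ACs and 360.4, 407 and 380.4 after IL-4, with an interval of -0.31 to 0.43. Among the Ifi200 genes, Ifi203 had 221, 234 and 338 against 235, 199 and 396, Ifi204 had 384, 347 and 424 against 362, 340.4 and 560.2, and Ifi205 had 33.1, 23.4 and 37.5 against 36.5, 22.1 and 61.7. These groups overlapped too, with differences between 0.03 and 0.26. Of the 8 other tested family genes limma called 0 with IL-4, edgeR and DESeq2 each called 1 as lower, and 4 had an unadjusted p under 0.05, among them Ifi206 (log2 -0.90, adjusted p = 0.053).

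The effects of IFN-γ and IL-4, each against the ACs libraries of its own experiment, were then compared in 1 fit of all 18 libraries. The IFN-γ effect was larger by 1.80 on the log2 scale for Nlrp3 (adjusted p = 0.0018), by 1.38 for Casp1 (adjusted p = 9.8e-05) and by 1.16 for Ifi203 (adjusted p = 0.037), 3 of 10 against 14.3% of all genes tested. Ifi204 (0.74, adjusted p = 0.062) and Ifi205 (1.31, adjusted p = 0.065) did not pass, and Gsdmd passed the adjusted p (0.043) with 0.56, short of 1.5-fold. Without both shallow libraries Ifi204 (0.89), Ifi205 (1.53) and Gsdmd (0.70) were called as well, 6 of 10 against 15.6% of all genes tested in that fit. The Ifi203 call was lost on leaving out replicate 1 or 3 of the Type 1 ACs, replicate 2 or 3 of IFN-γ + ACs, replicate 3 of the ACs of the IL-4 experiment, or replicate 1 or 2 of IL-4 + ACs (0.95 to 1.18, adjusted p = 0.061 to 0.11), and also with no filter on low values (1.16, adjusted p = 0.11) and with upper-quartile scaling (1.07, adjusted p = 0.05). Single libraries also won calls: Ifi205 without replicate 1 of the Type 1 ACs (1.63), replicate 2 of the other ACs (1.501) or replicate 3 of IL-4 + ACs (1.67), Ifi204 without replicate 3 of IFN-γ + E. coli + ACs (0.74) or of IL-4 + ACs (0.96), and Gsdmd without replicate 3 of IFN-γ + ACs (0.59) or of the ACs of the IL-4 experiment (0.70). The 2 stimuli were given in separate experiments, so stimulus and experiment are separated only through the ACs libraries of each.

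Other transcripts of the pathway came from lists chosen with earlier results of these data known. Over all genes tested, 10.3% were called after E. coli, 21.4% after IFN-γ, 31.9% after both stimuli and 1.09% after IL-4. Of the substrates and outlets, Il1b, Il1a and Gsdme rose after E. coli, 3 of 5 tested, with Il1b, the precursor that caspase-1 cuts, at log2 3.06 (adjusted p = 3.7e-05). After IFN-γ, Il18 (1.12, adjusted p = 0.0053), Il1a (1.24, adjusted p = 0.0017) and Ninj1, whose protein ruptures the membrane of dying cells, rose (1.18, adjusted p = 3.7e-06). With both stimuli 3 of the 5 rose, while Il18 (0.37, adjusted p = 0.31) and Ninj1 (0.42, adjusted p = 0.024) were not called. Of 16 regulators and co-factors tested, 8 rose and 1 fell after IFN-γ. After E. coli 3 rose and 2 fell, and after both stimuli 8 rose and 1 fell. Those that rose with IFN-γ included Gbp5 (4.03, adjusted p = 5.1e-09) and Gbp2 (3.37, adjusted p = 4.7e-14), guanylate-binding proteins that act on bacterial membranes. Il18bp, which neutralizes IL-18 (2.12, adjusted p = 1.3e-09), and Il1rn, the IL-1 receptor antagonist (1.48, adjusted p = 1.3e-08), were also among them. Gbp5 (1.82, adjusted p = 0.00027) and Il1rn (1.98, adjusted p = 1.7e-09) rose after E. coli too. Txnip was the one that fell with IFN-γ, by 0.86 (adjusted p = 5.3e-05), and it was also lower after E. coli (-0.81, adjusted p = 0.00025).

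Of 6 other sensors tested, Naip1 rose after IFN-γ (1.64, adjusted p = 5.3e-05) and Nlrp12 fell by 1.17 (adjusted p = 0.0021), and after E. coli only Naip6 was called, falling by 1.22 (adjusted p = 0.0013). With both stimuli only Nlrp12 was called (-1.79, adjusted p = 1.9e-05). Of 5 other genes of DNA sensing, Tbk1 (0.93, adjusted p = 8.4e-05) and Zbp1 (0.91, adjusted p = 1e-06) rose after IFN-γ, and Tmem173, the STING gene, fell by 0.82 (adjusted p = 0.0042), as did Cgas by 0.75 (adjusted p = 0.0013). Tmem173 was the only 1 of the 5 called after E. coli (-0.99, adjusted p = 0.0018), and with both stimuli 2 rose and 1 fell. After IL-4, Gsdme (1.15, adjusted p = 0.045) and Serpinb1a (2.82-fold, adjusted p = 0.0040), whose protein inhibits granule proteases, were the only genes of these lists called.

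The ACs libraries of both experiments differed for the Ifi200 cluster, a comparison added after the values were seen. Over all 10592 genes tested, 19.2% were called and 8.53% as lower. Of the 8 other family genes tested, 7 were lower in ACs of the IL-4 experiment than in ACs of the Type 1 experiment, and edgeR and DESeq2 each called all 8. Ifi208 was lower by 2.05 on the log2 scale (adjusted p = 0.00022), Ifi206 by 1.91 (adjusted p = 1.5e-05) and Ifi214 by 1.77 (adjusted p = 0.0092). Of the 10 genes, Ifi204 was called (-0.72, adjusted p = 0.0030), from a mean of 633 ± 29.7 (SD, n = 3) in the Type 1 experiment to 385 ± 38.2 (SD, n = 3), while edgeR and DESeq2 each called 3 as lower, Ifi204, Ifi205 and Pycard. Aim2, at 74.5 ± 4.37 and 95.7 ± 22.9 (SD, n = 3), was not called (0.33, adjusted p = 0.32). The shallow ACs library of the IL-4 experiment, in which Aim2 had 13 reads, is part of all these values. The macrophage marker sum was higher in ACs of the IL-4 experiment (28307 to 41497) than in ACs of the Type 1 experiment (18657 to 23960), opposite to the Ifi200 genes. Day, animals and sequencing run cannot be told apart between the experiments.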

How the data were processed

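RNA was measured in 18 CEL-Seq2 libraries, 3 per group. The authors deposited a signal per gene, reads divided by DESeq2 size factors, with FastQC 0.11.5, cutadapt 1.10, TopHat2 2.1.0, Bowtie2 2.2.6, HTSeq 0.6.1 and DESeq2 1.26.0 on GRCm38 named in the submitters' processing notes. Every value was a whole multiple of 1 step per library (tolerance 0.006 normalized counts, 100% of values), so reads were recovered. Symbols matched 54409 of 54446 identifiers. Genes with a mean of at least 10 were fitted with limma 3.58.1 (lmFit, eBayes with trend, R 4.3.3) on log2(normalized count + 1), Type 1 comparisons on 12 libraries, IL-4 on 6 and the comparison of both on 18, adjusted over all genes and called at 0.05 and 1.5-fold. Alternatives were a pseudocount of 5, no filter, a mean of 50, a replicate block, upper-quartile scaling, edgeR 4.0.16 and DESeq2 1.42.0 on recovered reads, no fold threshold, all libraries in 1 fit and each library left out. Fits were tested on simulated data. Counts of 3 reads or fewer, 1.58 to 16.1 normalized counts by library, cannot be told from 0, and such floors cover counting error only. All 10 genes are named in every group; other genes come from lists. Genes and lists were chosen with earlier results of these data known. Motifs were searched in RefSeq promoters. Python 3.11.15 and matplotlib 3.10.9 were used.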

Additional observations from a re-analysis of the deposited data

Results flagged for a closer look

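The E. coli effect differed with and without IFN-γ, by the interaction term of the limma fit, for these genes of the lists (log2, effect with IFN-γ minus effect without it, 3 libraries per group). Over all genes tested, 7.44% were called in the interaction. Among the DNA sensor family the term was -1.67 for Ifi205 (adjusted p = 0.0091), -1.25 for Ifi206 (adjusted p = 0.0010), -1.05 for Ifi211 (adjusted p = 0.035), -0.99 for Ifi213 (adjusted p = 0.027) and -0.92 for Ifi208 (adjusted p = 0.029). Among regulators it was -2.06 for Gbp5 (adjusted p = 0.0049), -1.501 for Il1rn (adjusted p = 1.6e-05) and 1.25 for Txnip (adjusted p = 0.00034). For the outlets Il18 and Ninj1 it was -1.39 (adjusted p = 0.037) and -1.23 (adjusted p = 0.00089). The bacterial sensors Naip1 and Naip6 had terms of -1.37 (adjusted p = 0.021) and 1.76 (adjusted p = 0.0026), and were thus apart in sign. Reads that fit both Ifi205 and Ifi211 may have been left out or counted for the wrong gene, so their 2 terms may not be separate.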

How the results depend on the processing

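For single genes, 1680 values under alternatives were compared with the main ones: 1609 stayed on the same side of the threshold in the same direction, 14 lost and 31 gained a call, and 26 turned direction, none with an adjusted p under 0.05. The cause was not tested unless named. Genes called in the interaction numbered 1 in the main fit, 2 with a mean of at least 50, 2 with DESeq2 and 1 to 4 leaving out 1 library. For IL-4 the number was 0, and 1 without both shallow libraries. For the IFN-γ effect minus the IL-4 effect it was 3, against 5 with the replicate block, 6 with edgeR, 6 with DESeq2, 6 without both shallow libraries and 2 to 5 leaving out 1 library. Over all genes, IL-4 called 116, against 208 without the filter, 74 with the block, 212 in edgeR, 209 in DESeq2, 221 in a fit of all 18 libraries, 656 without both shallow libraries and 47 to 130 leaving out 1 library. The interaction called 756, against 495 in that fit and 400 to 1026 leaving out 1 library. Same-numbered libraries did not deviate together (r -0.089 to 0.085 over 18 pairs in the Type 1 experiment), so replicate numbers were not treated as pairs, and the block changed no other count of these genes by over 1.5 times.

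Values that turned direction had no call. With upper-quartile scaling Aim2 turned to -0.080 between both stimuli and E. coli, and its mean with E. coli was 60.5. The Casp1 interaction was 0.031 in edgeR, 0.031 in DESeq2 and -0.17 to 0.070 leaving out 1 library. Leaving out 1 library also gave -0.28 to 0.0090 for Ifi203 with E. coli, -0.098 to 0.48 for Mefv between both stimuli and IFN-γ, and -0.15 to 0.82 for Mefv between the IFN-γ and IL-4 effects. Between both stimuli and E. coli it gave -0.092 to 0.089 for Aim2, -0.34 to 0.089 for Ifi205 and -0.12 to 0.27 for Ifi204. With IL-4 it gave -0.26 to 0.23 for Ifi203, -0.26 to 0.0085 for Pycard, -0.030 to 0.31 for Aim2, -0.081 to 0.17 for Gsdmd, -0.11 to 0.61 for Ifi205 and -0.13 to 0.23 for Ifi204. Without both shallow libraries the IL-4 values were -0.072 for Ifi203, -0.057 for Ifi204 and -0.078 for Gsdmd.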

Other observations

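Over the 12 Type 1 libraries, the genes whose log2 values ran most like those of each gene were named by Pearson's r among 6746 genes, as a description. The 12 libraries fall into 4 groups, so r follows mostly the group means. For Pycard they were Ly86 (0.984), C1qc (0.975) and Ctsl (0.974), for Casp1 Sgms1 (0.991), AW112010 (0.989) and Fmnl2 (0.987), and for Nlrp3 Cisd2 (0.969), Fndc3b (0.967) and Slamf1 (0.967). For Ifi203 the nearest was Maf (0.950), for Ifi204 Frmd4a (0.972) and for Ifi205 Isg15 (0.936). Among the genes themselves, Casp1 ran closest to Gsdmd (0.945) and Casp4 (0.942), and Nlrp3 ran opposite to Pycard (-0.666).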
